A study of Gallus gallus with 3 samples.

Results

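The GSC/EBF positive mesenchyme of the chicken forelimb at embryonic day 4 (E4) comprised 453 cells of 4522 PRRX1 positive cells, or 10.0% (exact binomial 95% interval 9.16 to 10.9), and of 5157 E4 cells in all. A cell was a member when it held at least 1 unique molecular identifier (UMI, a counted mRNA copy) of PRRX1, at least 1 of GSC, at least 2 of EBF2 and EBF3 summed, and 0 of EN1. Members were compared with the other 4069 PRRX1 positive E4 cells. Chicken forelimbs at E4, E6 and E10 were dissociated with collagenase and by mechanical means and sequenced by droplet single-cell RNA-sequencing, with 2, 3 and 3 embryos pooled into 1 library per stage. No genotype, treatment or sort is named for these embryos, and the study names 2 commercial egg strains, White Leghorn and JA57, without tying either to a library. There were thus no replicates, and embryos cannot be told apart within a library. No p-value was computed, and all intervals cover counting error only.

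PRRX1 is a homeobox gene of limb mesenchyme and its connective tissue derivatives. GSC (goosecoid), first known from the organizer of the early embryo, is expressed later in parts of the head and limb mesenchyme. EBF2 and EBF3 are transcription factors of the early B cell factor family, known for roles in fat, bone and connective tissue lineages. EN1 is best known in the limb as a gene of the ventral ectoderm. The early limb bud mesenchyme is patterned along its proximodistal, dorsoventral and anteroposterior axes by HOX genes, LMX1B and Hedgehog, and is kept growing by FGF, WNT and BMP signals between ectoderm and mesenchyme.

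The E4 cells held 20637153 UMIs, with a median of 3665 UMIs and 1648 genes per cell. Members did not stand apart in quality, with a median of 3686 UMIs and 5.07% mitochondrial UMIs against 3741 UMIs and 5.10% in the comparison cells. A UMI of the W-linked gene Wpkci-7 was found in 99.9% of E4 cells, in 13.9% of E6 cells and in 1 cell at E10. It could thus not separate the 2 embryos of E4. W-linked RNA comes from female birds, so the sex of the pooled embryos differs between the libraries along with age. The E4 cells shared 8 barcodes with the E6 cells and 21 with the E10 cells, of which 0 and 2 were barcodes of members.

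The rule genes describe the members and support nothing. GSC was held at 1 UMI by 337 members, at 2 by 73 and at 3 or more by 43, with 5 as the highest count. EBF3 was the main EBF gene, found in 98.2% of members with a median of 3 UMIs, whereas EBF2 was found in 59.6%. PRRX1 had a median of 4 UMIs. Its level was 1365 CPM (pooled UMIs of the gene per 1000000 pooled UMIs of all genes in the same cells) in members against 1681 CPM in the comparison cells, a log2 ratio of −0.30 (95% interval −0.36 to −0.24). In barcodes of 1 to 100 UMIs, taken as free RNA, GSC was at 44.7 CPM against 347 CPM in members. The part of free RNA in cells with a single GSC UMI was not tested. Of 46 ectoderm cells (no PRRX1 and at least 3 UMIs of ectoderm genes, with a median of 4069.5 UMIs), 1 held a GSC UMI and 1 an EBF3 UMI.

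The 66 members just inside the thresholds, with 1 UMI of GSC and 2 of EBF2 and EBF3, had 446 CPM of AKR1D1 and 1514 CPM of PTN. The 60 cells just outside with 1 UMI of EBF2 and EBF3 had 319 and 1176 CPM. The 376 cells just outside without GSC had 431 and 1140 CPM. The AKR1D1 interval of the members just inside (365 to 538) overlapped those of both groups just outside (247 to 405 with a single EBF UMI, 397 to 467 without GSC).

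AKR1D1 was the proposed marker of these cells. It encodes a steroid beta-reductase known from bile acid synthesis in the liver. It reached 745 CPM (706 to 786) in members against 310 CPM (302 to 319) in the other PRRX1 positive cells, a log2 ratio of 1.26 (1.18 to 1.35). It was detected in 65.3% of members (60.8 to 69.7), with a median of 1 UMI and a maximum of 42, and in 42.0% of the comparison cells. Within the comparison cells, the share was 64.5% (61.7 to 67.2) in those with at least 2 EBF UMIs and no GSC or EN1. It was 68.0% (61.8 to 73.8) in the EN1 positive cells. The detection share thus did not set members apart from either class. With each cell thinned to 2000 UMIs, which left out 14 members and 224 comparison cells, the shares in members and in all comparison cells were 51.3% and 29.7%. AKR1D1 was then held by 564 of 1127 cells of the EBF class and 120 of 240 EN1 positive cells. It was found in 0 of 46 ectoderm cells, which allows a share of up to 7.71%, and its free RNA level was 400 CPM. No AKR1D1 UMI was held by 157 of the 453 members.

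PTN, which encodes the heparin-binding growth factor pleiotrophin, was the most abundant of the genes named by their ratio. Its level was 2126 CPM (2059 to 2195) in members against 909 CPM in the comparison cells, a log2 ratio of 1.23 (1.18 to 1.28), and it was detected in 90.5% of members against 72.4%. After thinning, these shares were 81.8% and 60.1%, and PTN was found in 4 of 46 ectoderm cells. Its free RNA level was 868 CPM. Before thinning, PTN was detected in 88.0% of the comparison cells with at least 2 EBF UMIs and no GSC or EN1. It was detected in 95.5% of the EN1 positive cells. With the rule genes left out, AKR1D1 and PTN differed from the remaining leading genes in scale, since those were at 40.4 CPM or less in members.

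Among the 9281 genes with at least 5 expected UMIs in members, 71 were at least 2-fold higher in them, or 0.765% of the genes counted, and 238 were at least 2-fold lower, or 2.56%, which makes 309 in either direction (3.33%). The counting interval, not adjusted for the number of genes, left out 0 for 68 of the 71 and for 142 of the 238. The median log2 ratio of all counted genes was −0.02. The higher genes named by the size of their ratio, besides GSC, EBF2, EBF3, AKR1D1 and PTN, were low in abundance. They included receptors and adhesion proteins. CA10, a carbonic anhydrase-related protein, was at 40.4 CPM against 15.7 CPM (log2 ratio 1.36, 0.97 to 1.74) and was found in 61 members. LIFR, a cytokine receptor subunit, was at 34.9 against 15.5 CPM (1.17, 0.75 to 1.57) and was found in 59. After thinning, CA10 was found in 7.52% of members and 3.17% of the comparison cells. LIFR was then found in 5.47% (3.53 to 8.03) and 3.2% (2.69 to 3.83), with overlapping intervals. CHRNA4, a nicotinic acetylcholine receptor subunit, was at 18.8 against 6.28 CPM (1.58, 0.98 to 2.16). NRXN3, a neurexin, was at 12.2 against 5.19 CPM, with a log2 ratio of 1.23.

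The transcription factors and cofactors among them were ATF3, a stress-responsive factor, at 12.7 against 3.26 CPM (1.97, 1.19 to 2.69), LMO3, a LIM-only cofactor, at 17.7 against 8.03 CPM (1.14), and USF3 at 12.7 against 5.43 CPM (1.23). RRH, an opsin family member, had a log2 ratio of 1.94 (1.17 to 2.67). The fibrillin gene FBN1 was at 12.2 against 5.43 CPM and the retinoic acid degrading enzyme CYP26A1 at 11.1 against 5.07 CPM. Each of these 6 genes rested on 20 to 32 UMIs in members, and the lower ends of their intervals ran from 0.34 to 1.19.

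The genes lowest in members were more strongly separated from the comparison cells, and several were also low in cells with EBF UMIs but no GSC, as given below. GREM1, a BMP antagonist of the distal mesenchyme, had 0 UMIs in the 453 members against 415 UMIs in 279 of the 4069 comparison cells. With a floor of 3 UMIs over all members, GREM1 was at least 15.1-fold lower in them than the 25.1 CPM of the comparison cells, and 0 of 453 cells allows a share of up to 0.811% (exact binomial). LMO1, another LIM-only cofactor, had 1 UMI in members against 208 (log2 ratio −4.50, −9.81 to −2.01). FGF18, an FGF ligand, had 3 UMIs against 292 (−3.41, −5.69 to −1.85). NANOS1, an RNA-binding protein gene, also had 3 UMIs, against 242. Comparison cells with at least 2 EBF UMIs and no GSC or EN1 had 4.87 CPM of GREM1 and 3.54 CPM of LMO1. They had 3.76 CPM of FGF18 and 5.53 CPM of NANOS1. EN1 negative cells with neither GSC nor EBF had 42.2, 19.35, 28.7 and 22.2 CPM of these genes in the same order. Against the EBF positive cells without GSC, the same floor put GREM1 at least 2.93-fold lower in members.

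HOXA11, a HOX gene of the middle limb segment, was at 4.98 CPM in members against 44.1 CPM (log2 ratio −3.15, −4.28 to −2.21). EMX2, a homeobox gene needed for the scapula in mice, was at 13.3 against 93.9 CPM (−2.82, −3.47 to −2.24). It was found in 3.75% of members and 20.8% of the comparison cells, or 1.59% and 14.1% after thinning, and in 15 of 46 ectoderm cells. TFAP2A was at 2.77 against 20.9 CPM (−2.92), the ephrin receptor gene EPHA3 at 3.88 against 26.7 CPM (−2.78) and NDRG1 at 4.98 against 22.2 CPM (−2.16). TFAP2A was also low in the EBF positive cells without GSC, at 4.65 CPM, against 33.2 CPM in cells with neither.

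**Figure D1:**
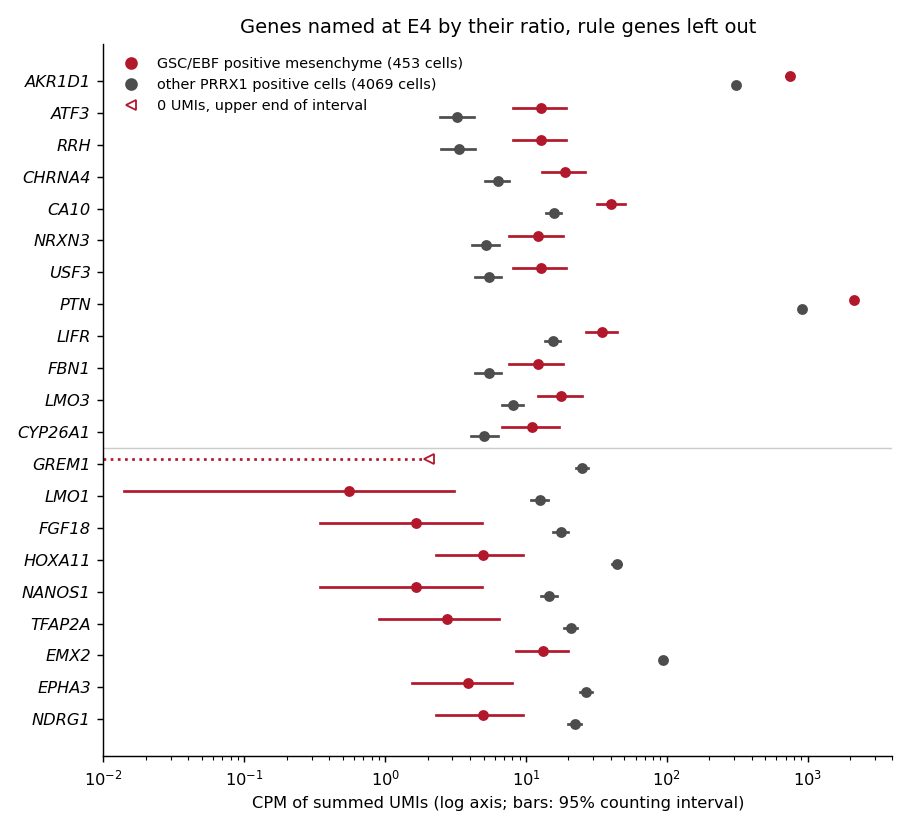
Levels in CPM on a log axis of the 21 genes named at E4 that the rule did not use, with 95% counting intervals, in the GSC/EBF positive mesenchyme (red) and the other PRRX1 positive cells (grey). AKR1D1 and PTN lie above 700 CPM in members, the other 10 higher genes lie between 11.1 and 40.4 CPM, and GREM1 is drawn at the upper end of the interval of 0 UMIs.

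Patterning genes were examined by axis. For the list counts here and below, the shares over all counted genes were 0.765% at least 2-fold higher and 2.56% lower in members. Of 12 counted genes of the distal list, 7 were at least 2-fold lower in members and 0 higher, with a median log2 ratio of −1.09 against −0.02 over all counted genes. Besides HOXA11 and LMO1, these were HOXD12 (30.5 against 116 CPM, −1.93), HOXD13 (7.75 against 29.0 CPM, −1.90), SALL1 (8.86 against 33.0 CPM, −1.90), DLX5 (3.88 against 8.51 CPM, −1.13) and HOXD11 (42.1 against 86.9 CPM, −1.05). The distal list was also low in related PRRX1 positive, EN1 negative cells. Against cells with neither GSC nor EBF UMIs, 7 of 12 counted distal genes were at least 2-fold lower in cells with at least 2 EBF UMIs and no GSC (median −1.20) and 6 of 10 in cells with GSC and no EBF (−1.66). Against the EBF positive cells without GSC, 2 of 11 were lower in members (−0.25). Over all genes counted in these comparisons, 2.91%, 3.77% and 1.96% were at least 2-fold lower, in the same order. MSX2, also on this list, was at 186 against 171 CPM (0.12, −0.05 to 0.28).

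Of 14 counted genes of the proximal list, 0 were at least 2-fold higher and 3 at least 2-fold lower, with a median log2 ratio of 0.27. The 3 were EMX2, HOXA10 (12.7 against 31.4 CPM, −1.30) and SHOX2, which had a log2 ratio of −2.40 on low counts. The proximal homeobox genes MEIS1 (110 against 76.2 CPM, 0.53), PBX3 (171 against 120 CPM, 0.51) and IRX6 (87.0 against 57.2 CPM, 0.60) were moderately higher, with intervals above 0. ZBTB16, a zinc finger gene of limb and axial patterning, was at 20.5 against 10.4 CPM (0.97, 0.42 to 1.49).

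Of 26 counted genes among the 35 HOX genes in the files, 5 were at least 2-fold lower and 0 higher. The 5 were HOXA11, HOXD11, HOXD12 and HOXD13, already counted in the distal list, and HOXA10 of the proximal list. The remaining 21 had log2 ratios between −0.35 for HOXA9 (229 against 291 CPM) and 0.92 for HOXB9, which rested on 12 UMIs. HOXB5 was at 163 against 115 CPM (0.50, 0.32 to 0.68), HOXA4 at 169 against 141 CPM (0.27, 0.09 to 0.44) and HOXA5 at 355 against 338 CPM (0.07, −0.05 to 0.19).

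LMX1B, the homeobox gene that specifies dorsal limb mesenchyme, was at 16.6 CPM in members against 59.2 CPM (−1.83, −2.41 to −1.31). It was found in 4.86% of members (3.07 to 7.26) and 18.0% of the comparison cells, or 1.82% and 9.23% after thinning, and in 2 of 46 ectoderm cells. The apolipoprotein gene APOA1 was also lower, at 15.5 against 47.6 CPM (−1.62), but GATA5, a zinc finger factor listed with it, was at 45.4 against 45.9 CPM (−0.01, −0.36 to 0.32). The comparison cells kept 247 EN1 positive cells, which the rule bars from members and which were high in both genes, as given below. Both ratios are therefore partly set by the rule. Among Hedgehog and anteroposterior genes, 2 of 9 counted were at least 2-fold lower, TBX3 (5.54 against 11.8 CPM) and GLI1, which had 1.11 CPM in members. The repressor GLI3 was at 133 against 136 CPM. HAND2, a posterior transcription factor, was at 23.8 against 14.4 CPM (0.72, 0.22 to 1.20).

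Among the FGF receptors, FGFRL1 alone was past 2-fold. FGFR2 was at 191 against 108 CPM (0.82, 0.65 to 0.99), FGFR3 at 366 against 251 CPM (0.54, 0.42 to 0.66), FGFR1 at 303 against 252 CPM (0.26) and the decoy receptor FGFRL1 at 17.2 against 8.39 CPM (1.03, 0.42 to 1.60). The ligand FGF10 was at 26.6 against 39.5 CPM (−0.57, −1.03 to −0.15). In the whole list, 1 of 10 counted FGF genes was at least 2-fold higher and 2 lower, FGF18 and the feedback inhibitor IL17RD.

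Of 18 counted WNT genes, 3 were at least 2-fold lower and 0 higher. They included AXIN2 (46.0 against 100 CPM, −1.13, −1.46 to −0.81) and NKD1 (32.1 against 69.0 CPM, −1.10), both feedback targets of WNT signalling, and WNT5B at low counts. The secreted inhibitor SFRP1 was at 197 against 126 CPM (0.64, 0.47 to 0.80). Against the EBF positive cells without GSC, 0 of 18 counted WNT genes were past 2-fold, with log2 ratios from −0.55 to 0.58. In those cells against cells with neither GSC nor EBF, 4 of 21 were at least 2-fold lower and 1 higher. Of 15 counted BMP genes, 3 were at least 2-fold lower, GREM1, BMP5 (4.43 against 10.7 CPM) and BMP7 (2.22 against 4.77 CPM). The BMP response genes ID1 to ID4 had log2 ratios of 0.33, 0.39, 0.38 and 0.34, all with intervals above 0. ID1 was the highest of them at 563 against 449 CPM. The 19 BMP genes in the files summed to 2105.7 CPM in members and 2054.5 CPM in EBF positive cells without GSC. Their sum was 2233.9 CPM in cells with GSC and no EBF and 1540.4 CPM in cells with neither. Against the EBF positive cells without GSC, the median log2 ratio of 16 counted BMP genes was −0.03.

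Of 12 counted retinoic acid genes, CYP26A1 alone was at least 2-fold higher and 0 were 2-fold lower. The binding protein CRABP-I was the most abundant at 2473 against 1878 CPM (0.40, 0.35 to 0.44). Its free RNA level was 2486.5 CPM, about that of members. The receptor RARB was at 182 against 141 CPM (0.37). STRA6, the retinol uptake receptor, was at 29.4 against 57.3 CPM (−0.96) and the retinol dehydrogenase RDH10 at 38.8 against 68.0 CPM (−0.81). Within the list of steroid and bile acid enzymes, AKR1D1 stood alone, since the other 6 counted genes had log2 ratios between −0.69 and 0.35 and 8 of the 20 genes in the files had 0 UMIs in members. For BMP7 and WNT5B the interval of the log2 ratio included 0, on 4 and 3 UMIs in members respectively, and IL17RD lay just past the 2-fold limit.

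Of 11 counted genes of the general connective tissue and limb list, 0 were past 2-fold in either direction, against 3.33% of all counted genes. With 11 genes, this count does not set the list apart from other genes. The median log2 ratio of the list was 0.08, and its ratios ran from −0.73 to 0.59. TBX5, the forelimb T-box gene, was at 222 against 210 CPM (0.08, −0.07 to 0.23) and TWIST1 at 460 against 451 CPM (0.03). TCF7L2, a marker of muscle connective tissue, was at 279 against 209 CPM (0.41, 0.27 to 0.55) and PDGFRA at 59.3 against 42.0 CPM (0.50, 0.19 to 0.79). In the matrix list, 1 of 28 counted genes was 2-fold higher (FBN1) and 1 lower (COL12A1, 8.86 against 19.4 CPM). COL1A1 was at 1273 against 1278 CPM. The small leucine-rich proteoglycans LUM (164 against 271 CPM, −0.72) and DCN (141 against 222 CPM, −0.66) and the link protein HAPLN1 (102 against 202 CPM, −0.98) were lower in members by less than 2-fold. LUM and DCN were also high in the EN1 positive cells kept in the comparison, as given below.

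Among early cartilage genes, the master regulator SOX9 was lower (6.65 against 22.1 CPM, −1.73, −2.70 to −0.91), while SOX8 (95.8 against 59.3 CPM, 0.69, 0.45 to 0.93) and SOX5 (68.7 against 46.3 CPM, 0.57, 0.28 to 0.84) were higher. Against the EBF positive cells without GSC, 0 of 7 counted cartilage genes were past 2-fold, with log2 ratios from −0.30 to 0.49. In those cells against cells with neither GSC nor EBF, 1 of 8 was at least 2-fold lower and 0 higher. Cell cycle genes did not differ past 2-fold, with 0 of 34 counted S phase and 0 of 40 counted G2M genes. Their sums were 5140 against 5219 CPM and 9685 against 9212 CPM.

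**Figure D2:**
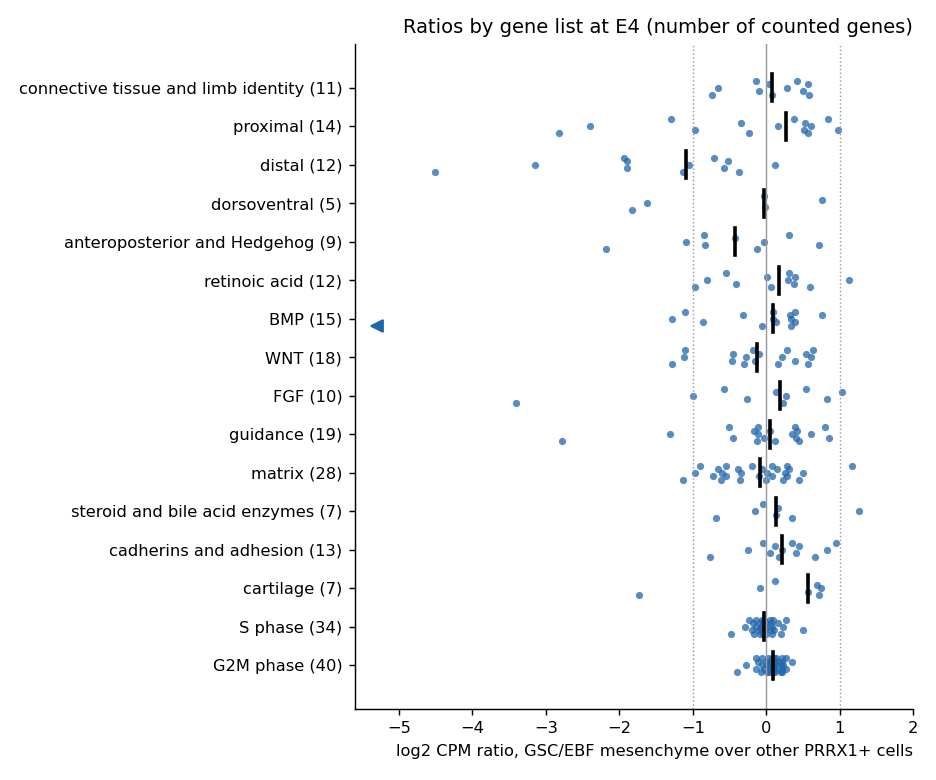
Log2 CPM ratio of each counted gene of 16 gene lists at E4, members over the other PRRX1 positive cells, with the list median as a black bar and dotted lines at 2-fold. The distal list has the lowest median at −1.09, and the triangle at the left edge of the BMP list stands for GREM1, which had 0 UMIs in members.

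Markers of other cell types were summed as well. The summed level of 14 ectoderm genes was 38.8 CPM in members against 61.8 CPM, and KRT5 and WNT7A were among 5 genes at 0 UMIs. The 11 endothelial genes summed to 141 against 138 CPM, carried mainly by ETS1 and ERG, while CDH5, TEK and 3 others were at 0. The 12 blood genes summed to 60.9 against 49.5 CPM, with 4 at 0. Of the 14 muscle genes, MYOD1, MYOG and 3 others were at 0, and of 5 counted, 0 were at least 2-fold higher and 2 lower. EYA1 was at 15.5 against 7.85 CPM (0.98). The 8 neural crest genes summed to 6.09 against 26.4 CPM, mainly TFAP2A, with SOX10 among 4 at 0. Of the 213 E4 cells with the highest simulated doublet scores, 43 were members, or 9.49% of them, against 4.03% of the comparison cells. With these cells left out, 410 members had log2 ratios of 1.29 for AKR1D1, 1.24 for PTN, −3.28 for HOXA11 and −2.62 for EMX2, while FBN1 (0.89) and CYP26A1 (0.91) no longer reached 2-fold. Among the 116 members with at least 2 GSC UMIs, the log2 ratio was 1.31 for PTN, 0.93 for AKR1D1, 0.99 for CA10, 0.36 for FBN1, 0.35 for USF3 and 0.05 for CHRNA4, so that of these PTN alone still reached 2-fold.

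When PRRX1 positive, EN1 negative cells were divided by GSC and EBF2 plus EBF3, AKR1D1 and PTN were high in the 1198 cells with at least 2 EBF UMIs and no GSC, at 678 and 1723 CPM, close to members. In the 81 cells with GSC and no EBF they were lower, at 284 and 1159 CPM, and in the 1922 cells with neither lower still, at 92.1 and 427 CPM. Against the cells with neither, 349 of 10738 counted genes (3.25%) were at least 2-fold higher and 313 (2.91%) lower in cells with EBF alone, 662 in all (6.17%). In cells with GSC alone, 59 of 5887 counted genes (1%) were higher and 222 (3.77%) lower, 281 in all (4.77%). AKR1D1 was found in 24.4% of the cells with neither, or 14.2% after thinning. In the 81 cells with GSC and a single EBF UMI the levels were 275 and 1116 CPM.

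LMX1B was at 16.6 CPM in members and 19.2 CPM in EBF positive cells without GSC, but 66.5 CPM (40.2 to 104) in GSC positive cells without EBF and 91.9 CPM in cells with neither. EMX2 had 13.3 CPM in members, 30.5 CPM with EBF alone, 73.5 CPM with GSC alone and 144 CPM with neither. HOXD12 was at 30.5 CPM in members, 64.2 CPM with EBF alone, 49.0 CPM with GSC alone and 165 CPM with neither. FGFR2 was at 191 CPM in members, 172 CPM (127 to 227) with GSC alone, 132 CPM with EBF alone, 97.2 CPM with GSC and a single EBF UMI and 91.3 CPM with neither. The level with GSC alone could thus not be told from that with EBF alone.

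The 247 EN1 positive cells were a different mixture. They had 339 CPM of APOA1, 266 CPM of GATA5, 767 CPM of LUM and 702 CPM of DCN, where members had 15.5, 45.4, 164 and 141 CPM. Their AKR1D1 level of 534 CPM and PTN level of 1238 CPM were lower than in members. Their shares of cells with a UMI were not lower, at 68.0% against 65.3% for AKR1D1 and 95.5% against 90.5% for PTN. After thinning, AKR1D1 was held by 120 of 240 EN1 positive cells and 225 of 439 members. PTN was then found in 86.7% and 81.8%. Among the EN1 positive cells, 20 met the rest of the rule and had 871 CPM of AKR1D1.

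**Figure D3:**
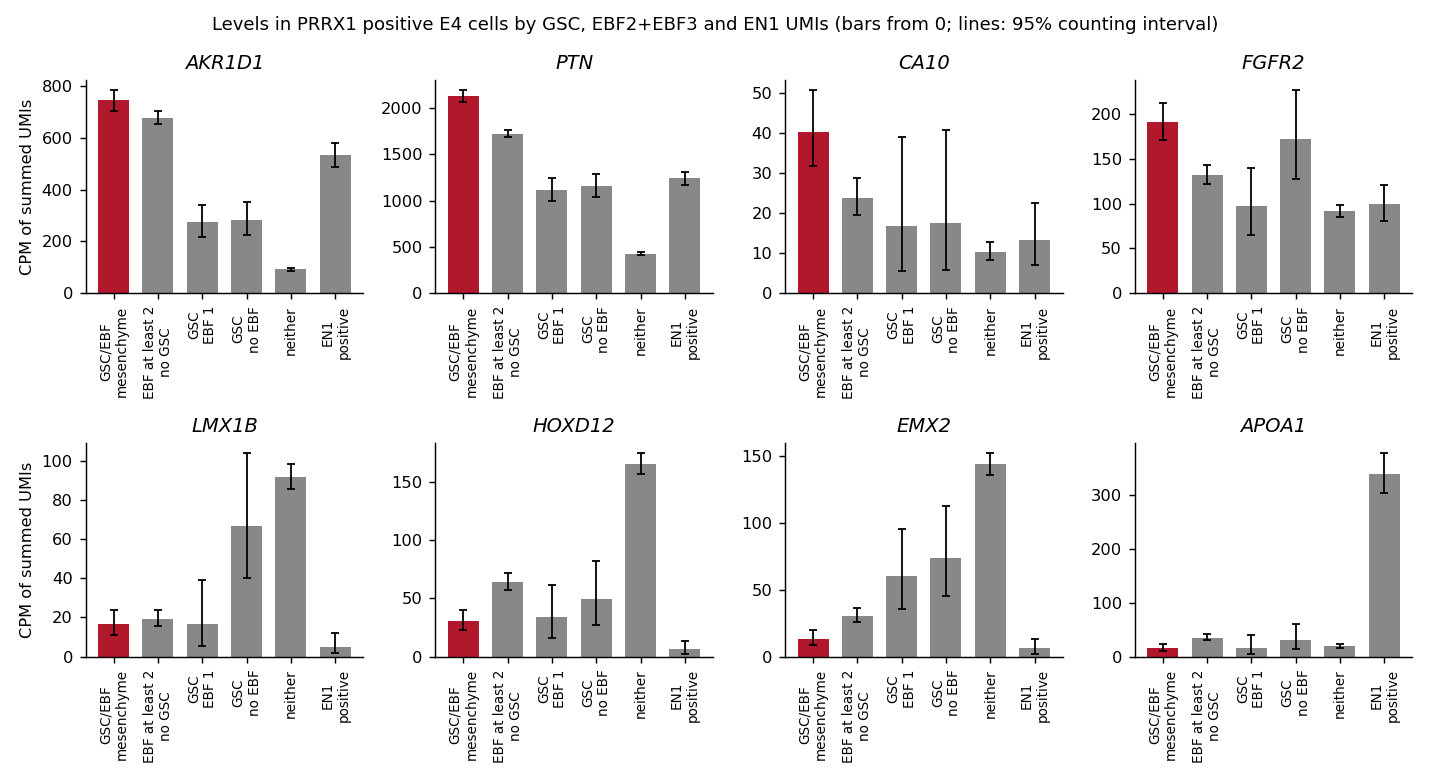
Levels in CPM, with bars from 0 and 95% counting intervals, of 8 genes in members (red) and 5 other classes of PRRX1 positive E4 cells defined by GSC, EBF2 plus EBF3 and EN1 UMIs. AKR1D1 and PTN are highest in the classes with at least 2 EBF UMIs, LMX1B, HOXD12 and EMX2 in the cells with neither GSC nor EBF, and APOA1 in the EN1 positive cells.

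A direct comparison of members with the EBF positive, EN1 negative cells without GSC narrows the contrast but does not hold EBF equal, since EBF2 was at 255 against 197 CPM (log2 ratio 0.37, 0.20 to 0.53) and EBF3 at 955 against 847 CPM (0.17, 0.09 to 0.26). It was chosen after the class levels had been seen. Of 9314 counted genes, 83 were at least 2-fold higher in members (0.891%) and 183 at least 2-fold lower (1.96%), 266 in all (2.86%). AKR1D1 and PTN had log2 ratios of 0.14 and 0.30. CA10, LIFR, CHRNA4 and NRXN3, named above as higher than in all other PRRX1 positive cells, had 0.76, 0.91, 0.53 (−0.12 to 1.16) and −0.07 (−0.85 to 0.66). LMO3, FBN1 and CYP26A1, also named above as higher, had 0.24, 0.57 and 0.65, each with an interval that included 0. The differences of CHRNA4, NRXN3, LMO3, FBN1 and CYP26A1 from this class were thus within counting error. RRH had 2.26 (1.20 to 3.40), ATF3 1.68 (0.72 to 2.65) and USF3 1.32 (0.42 to 2.22), each from 23 UMIs in members. EPHA3 was lower at 3.88 against 18.8 CPM (−2.28, −3.64 to −1.17), as were HOXA11 (−1.41), TBX3 (−1.24), EMX2 (−1.20) and APOA1 (−1.18). LUM (164 against 298 CPM, −0.86) and DCN (141 against 242 CPM, −0.78) were also lower, and FGFR2 was higher (191 against 132 CPM, 0.53, 0.33 to 0.72). HOXD12 was at 30.5 against 64.2 CPM (−1.07).

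The 453 members were also divided by the UMIs of the rule genes, which is a description of the selection and not a test. AKR1D1 and PTN were higher in the cells with at least 5 EBF UMIs, which were also the deepest. The 89 members with 2 EBF UMIs had 405 CPM of AKR1D1 and 1481 CPM of PTN, the 156 with 3 or 4 had 479 and 1736 CPM, and the 208 with at least 5 had 1051 and 2633 CPM. PRRX1 was lower in the same order, at 1604, 1468 and 1204 CPM, and the median depth was 3654, 3422.5 and 4039.5 UMIs. AKR1D1 was not higher with more GSC UMIs, at 780 CPM in members with 1 GSC UMI, 665 CPM with 2 and 641 CPM with at least 3, while PTN was at 2001, 2489 and 2362 CPM. The median UMIs of these cells were 3520, 4155 and 4396.

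Members with an AKR1D1 UMI differed from those without in genes other than AKR1D1. The split, like the next one, was chosen after values had been seen. Of 8593 counted genes, 539 were at least 2-fold higher (6.27%) and 340 lower (3.96%). The filter of 5 expected UMIs applied to the cells with AKR1D1, which held 1211523 UMIs in all. The cells without held 594085 UMIs, so many ratios rest on few UMIs there. How many of these genes lay within counting error was not determined. The 296 cells with AKR1D1 (median 3794.5 UMIs) had 2497 CPM of PTN against 1370 CPM in the 157 without (median 3496 UMIs). They had more DCN (178 against 64.0 CPM, log2 ratio 1.48, 0.98 to 2.02), more of the retinoic acid synthesis gene ALDH1A2 (43.7 against 5.05 CPM, 3.11, 1.49 to 5.44) and more GATA5 (59.4 against 16.8 CPM, 1.82). HOXA9 was at 292 against 99.3 CPM (1.56, 1.16 to 1.98). In contrast, they had less of the homeobox genes MSX1 (37.1 against 167 CPM, −2.17, −2.71 to −1.64) and MSX2 (135 against 290 CPM, −1.11) and of the BMP response genes ID1 (462 against 768 CPM, −0.73) and ID2 (352 against 643 CPM, −0.87). PRRX1 was at 1191 against 1719 CPM. GSC differed little, at 338 against 367 CPM (−0.12, −0.36 to 0.12).

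HOXA9 gave another division, with 185 members that held a UMI and 268 that did not. The cells with HOXA9 were deeper, at a median of 4259 against 3308.5 UMIs. Of 8007 counted genes, 249 were at least 2-fold higher (3.11%) and 263 lower (3.28%), and how many of these lay within counting error was not determined. The cells with HOXA9 had more HOXD11 (80.0 against 8.37 CPM, log2 ratio 3.26, 2.20 to 4.52), HOXD12 (54.1 against 9.42 CPM, 2.52), the matrix protein gene SMOC1 (148 against 39.8 CPM, 1.90), the growth factor gene VEGFD (192 against 65.9 CPM, 1.54) and WNT5A (124 against 58.6 CPM, 1.08). AKR1D1 was at 1079 against 448 CPM (1.27, 1.10 to 1.44). They had less MSX2 (68.2 against 290 CPM, −2.09), TWIST2 (58.8 against 171 CPM, −1.54), GATA5 (22.3 against 65.9 CPM, −1.56), LUM (105 against 218 CPM, −1.06), CRABP-I (1757 against 3110 CPM, −0.82) and HOXB5 (98.8 against 220 CPM, −1.15). Both AKR1D1 and HOXA9 were held by 152 members, AKR1D1 alone by 144, HOXA9 alone by 33 and neither by 124.

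The 2 splits were not the same division. GATA5 was higher with AKR1D1 and lower with HOXA9, and PTN, which was higher with AKR1D1, was at 1956 against 2277 CPM with and without HOXA9 (−0.22, −0.31 to −0.13). The 52 members with HOXD11, HOXD12 or HOXD13 and the 59 with GATA5 or APOA1 shared 4 cells. The former had 495 CPM of HOXA9, 18.3 CPM of SOX8, 51.4 CPM of LUM and 1445 CPM of CRABP-I. The latter had 213 CPM of HOXA9, 75.3 CPM of SOX8, 310 CPM of LUM and 2551 CPM of CRABP-I. Sets of this size among 453 members overlap little by size alone. The 4 shared cells thus do not show that the 2 sets exclude each other. LMX1B was found in 22 members, which had 1039 CPM of PTN and a median of 5732.5 UMIs, well above that of all members.

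**Figure D4:**
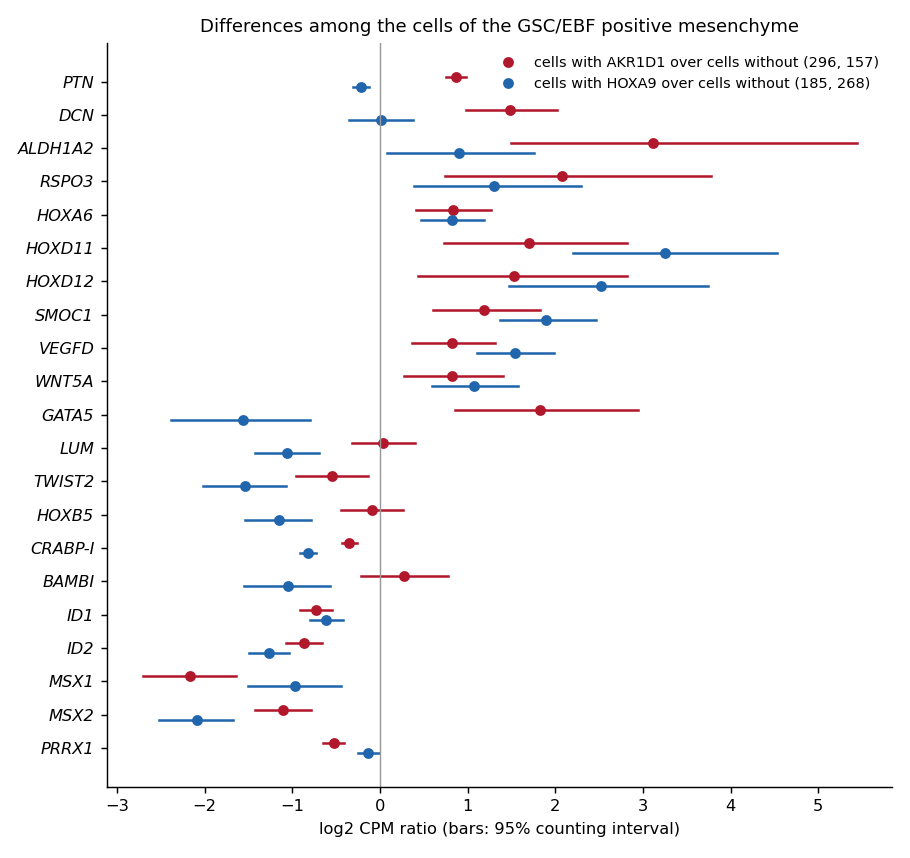
Log2 CPM ratios of 21 genes among members, with 95% counting intervals, for cells with an AKR1D1 UMI over cells without (red) and for cells with a HOXA9 UMI over cells without (blue). HOXD11, HOXD12, SMOC1, VEGFD and WNT5A lie above 0 in both splits and MSX1, MSX2, ID1 and ID2 below 0 in both, whereas GATA5 and PTN lie on opposite sides.

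Members also lay near each other in expression space when the 5 rule genes were left out. Among the 30 nearest cells of a member, 19.6% were members on average, against 8.78% of the library and 8.29% among the neighbours of the other PRRX1 positive cells. The neighbours of EBF positive cells without GSC held 14.7% members and those of cells with neither gene 3.76%. Most neighbours of members were thus other cells. EBF positive cells without GSC made up 38.2% of them (23.2% of the library) and cells with neither 14.6% (37.3% of the library). These shares rest on the same cells as the rule and are a description.

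The same rule found few cells in the libraries it was not made for. At E6 it took 44 of 2040 PRRX1 positive cells, or 2.16% (1.57 to 2.88), and at E10 38 of 4181, or 0.909% (0.644 to 1.25). The median depth of these cells was 2445 and 1639 UMIs, against 3686 at E4. The rule asks for UMIs. Depth, age, embryos and embryo sex all differ between the libraries and cannot be told apart, so the shares are given side by side.

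AKR1D1 was higher in the cells that met the rule in each library. At E6 it was at 1346 CPM against 861 CPM (log2 ratio 0.64, 0.41 to 0.87) and at E10 at 597 against 274 CPM (1.12, 0.64 to 1.56). The free RNA level of AKR1D1 was 1066 CPM at E6 and 251 CPM at E10. PTN was at 2967 against 570 CPM at E6 (2.38, 2.22 to 2.54) and, on the other side of 0, at 867 against 1118 CPM at E10 (−0.37, −0.76 to −0.0046). Of the 12 higher genes named at E4 that the rule did not use, 4 were counted at E6 and 4 of these were above 0, where 45.4% of all counted genes were above 0. At E10, 3 were counted and 1 was above 0, against 48.6% of all counted genes. Of the 9 lower genes, 4 were counted at E6 and 2 at E10, with 2 and 1 below 0. CDH11, a mesenchymal cadherin, had log2 ratios of 0.35, 0.63 and 0.45 at E4, E6 and E10, CRABP-I of 0.40, 0.84 and 1.57, and TCF7L2 of 0.41, 0.45 and 0.39. The E10 interval of TCF7L2 (−0.05 to 0.80) included 0. The free RNA level of CRABP-I was 2163 CPM at E6 and 932 CPM at E10. In the cells that met the rule it was at 1954 and 2643 CPM. Other genes changed sign between stages, among them FGFR3 (0.54, 1.39 and −1.98) and DCN (−0.66 at E4 and 0.97 at E6). FGFR3 rested on 19 UMIs at E6 (0.64 to 2.05) and on 4 UMIs at E10 (−3.9 to −0.62) in the cells that met the rule.

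At E6, 85 of 3759 counted genes were at least 2-fold higher (2.26%) and 228 lower (6.07%), 313 in all (8.33%). HIC1, a transcriptional repressor of mesenchymal cells, was at 381 against 80.4 CPM (2.24, 1.78 to 2.68) and the matrix gene FN1 at 965 against 327 CPM (1.56). Lower genes included MSX1 (138 against 407 CPM, −1.56) and HOXD13 (138 against 356 CPM, −1.37). A UMI of Wpkci-7 was found in 13 of the 44 cells and in 205 of the 1996 other PRRX1 positive cells. Its log2 ratio was 1.82 (1.52 to 2.11), so the 2 groups differed in this share. The 13 cells held 224 of the 366 PTN UMIs of the 44 cells. Among cells with Wpkci-7 and among cells without it, PTN had log2 ratios of 2.62 and 1.65 and HIC1 of 1.35 and 2.29. AKR1D1 had 0.21 (−0.16 to 0.56) and 0.51 (0.20 to 0.80), so its difference at E6 was smaller within either kind of cell than over both, and in the first kind was within counting error. This division was also made after the values had been seen.

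At E10, 71 of 2284 counted genes were at least 2-fold higher (3.11%) and 173 lower (7.57%), 244 in all (10.7%). The cells that met the rule held 123357 UMIs at E6 and 70385 at E10, against 1805608 at E4. The shares past 2-fold thus rest on unlike counts and do not measure how distinct the cells were at each stage. TFPI2, a protease inhibitor, was at 455 against 35.0 CPM (3.70) in 6 of 38 cells, and SFRP2, a secreted WNT antagonist, at 1250 against 412 CPM (1.60) in 23 of 38. OSTN had a log2 ratio of 6.15, but 41 of its 46 UMIs lay in 1 cell. The lowest included the haemoglobin gene HBA1, with 1 UMI against 5426, and GJA1, a gap junction gene, at 213 against 986 CPM (−2.21).

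**Figure D5:**
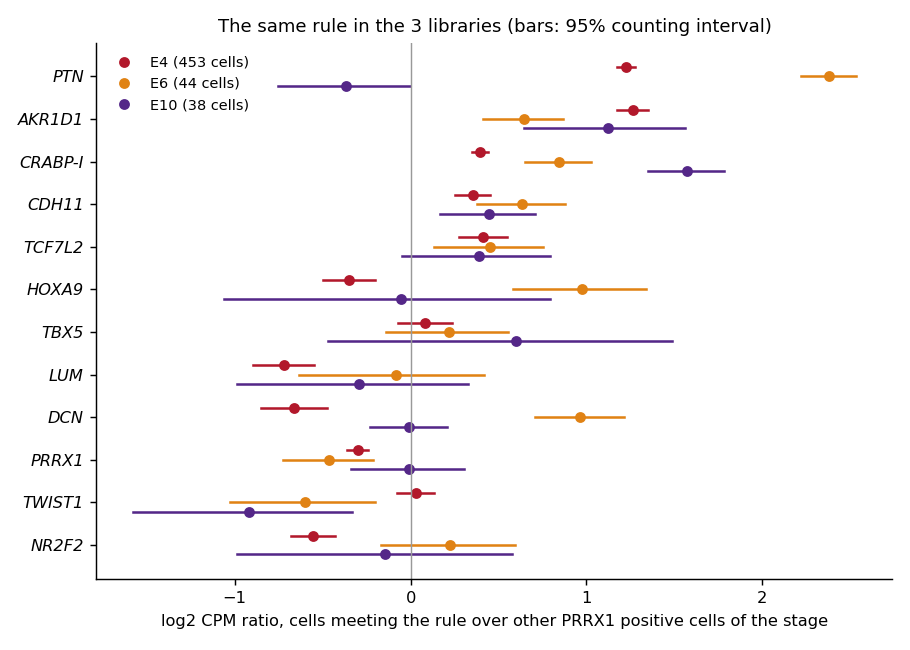
Log2 CPM ratios of 12 genes, cells that met the rule over the other PRRX1 positive cells of the same library, at E4 (red), E6 (orange) and E10 (purple), with 95% counting intervals. AKR1D1, CRABP-I and CDH11 lie above 0 in the 3 libraries, while PTN lies at 2.38 at E6 and −0.37 at E10.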

How the data were processed

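Single-cell RNA-sequencing of dissociated chicken forelimbs gave 1 library per stage (10x Chromium, 3' counting). The authors aligned reads with Cell Ranger 3.0.2 and STAR to GRCg6a and deposited UMI counts per gene and barcode, with empty barcodes included and no cell annotation. Cells were barcodes with at least 1000 UMIs and at most 10% of UMIs from 8 mitochondrial genes. This left 5157, 3308 and 14350 cells at E4, E6 and E10, of which the E4 and E10 numbers exceed the number of cells that the labels say was loaded.

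For each group of cells the summed UMIs were expressed as CPM with exact Poisson 95% intervals. Ratios carry exact conditional binomial intervals, with no pseudocount, and shares exact binomial (Clopper-Pearson) intervals. All cover counting error within 1 library. A gene was counted when members would hold at least 5 UMIs at the mean level over members and comparison cells, and called past 2-fold. Named genes were the rule genes, AKR1D1, the 15 highest (at least 20 UMIs in members) and the 10 lowest. The lowest needed at least 20 UMIs expected in members at the comparison level. Genes of the lists were named as well. HOX, marker and pathway lists and the members were chosen with earlier results of these data known. Neighbours were the nearest 30 cells over 30 principal components of 2000 variable genes without the 5 rule genes. Doublets were kept, and cells with the highest simulated doublet scores were left out in an alternative. Code was tested on simulated data. Analyses ran in Python 3.11.15 with matplotlib 3.10.9, pandas 2.3.3, scipy 1.17.1 and numpy 2.4.6. No sequences or coordinates were used here.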

Additional observations from a re-analysis of the deposited data

Results flagged for a closer look

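The ephrin receptor gene EPHA3 was lower in GSC/EBF positive cells at E4 and higher at E6. Its log2 ratio to the other PRRX1 positive cells was −2.78 at E4, where 6 of 453 members held a UMI, and 1.88 at E6, where 11 of 44 cells did and 1 cell held 10 of the 24 UMIs. Among E6 cells with Wpkci-7 the log2 ratio was −0.56, on 3 UMIs, and among those without it 2.41. EPHA3 was 1 of 3390 genes compared between E4 and E6 that lay past 2-fold in opposite directions.

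ADGRG2, an adhesion G protein-coupled receptor gene, had a log2 ratio of −2.02 at E4 (6.09 against 24.8 CPM) and 1.99 at E10 (284 against 71.3 CPM, in 13 of 38 cells). It was 1 of 2036 genes compared between E4 and E10 in this way. Neither difference between stages was tested, because each stage was 1 library, and stage, embryos, embryo sex and depth cannot be told apart.

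AKR1D1 was at 1422 CPM (1291 to 1562) in 94 E4 cells that had no PRRX1 UMI but met the rest of the rule, against 454 CPM (424 to 484) in the other 541 E4 cells without PRRX1. PTN was at 3962 against 1301 CPM in the same cells. These 94 cells stood outside the comparisons, and members made up 20.5% of their nearest neighbours. Their median depth was 3196.5 UMIs, against 3686 in members.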

How the results depend on the processing

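The 453 members became 116 when at least 2 GSC UMIs were asked for, 222 with a mitochondrial limit of 5% and 171 with every cell thinned to 2000 UMIs, and lay between 410 and 547 under the other settings. The 71 higher and 238 lower genes became 12 and 62 with a filter of 20 expected UMIs, 1166 and 509 with no filter other than 1 UMI in each group, and 367 and 664 at a fold of 1.5. With 2 GSC UMIs, 42 genes were higher. The other settings gave 67 to 105 higher and 183 to 294 lower genes, and neighbour shares of 18.0 to 22.2%. Of 284 recomputed log2 ratios of 24 genes, 245 stayed within the interval of the reported value, 38 left it and 1 changed sign, NRXN3, at −0.075 against EBF positive cells without GSC, a comparison added after seeing the data. With 2 GSC UMIs, AKR1D1 (0.93), CA10 (0.99), FBN1 (0.36), USF3 (0.35) and CHRNA4 (0.05) no longer reached 2-fold. The causes were not tested. No paired analysis was possible because each stage was 1 library, and no library could be left out. Most members passed the rule on a single GSC UMI (337 of 453), so depth limits who is a member.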
